A study of Rattus norvegicus with 9 samples.

Results

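Hair cells (HCs) of the vestibular organs are specified and kept by a small circle of transcription factors. The RNA levels of 10 of these factors were followed in vestibular epithelia of Long-Evans rats, all male by their labels, in controls and after chronic exposure to an ototoxic compound. The 10 genes were Pou4f3, Gfi1, Atoh1, Barhl1, Lhx3, Rfx1, Rfx2, Rfx3, Sox2 and Isl1, found by their symbols among the 32883 genes of the count table. All 10 were in the table and all 10 passed the filter on low counts, which kept 15517 genes.

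Rats of the IDPN-3wk and IDPN-7wk groups drank water with 20 mM 3,3'-iminodipropionitrile (IDPN), a nitrile that is toxic to vestibular HCs, for 3 or 7 weeks. Control rats drank plain water, and the labels name no transgene or deletion. The labels give no age, and the study describes the controls as 1 group with animals killed at each time point, so age and time of exposure cannot be told apart. Each group had 3 libraries, each from the pooled utricles and cristae of 1 rat, and both IDPN groups were set against the same 3 Control libraries. These pools hold HCs with the supporting cells, nerve endings, glia and stroma left after dissection. From their counts alone, fewer cells of a type and less RNA per cell cannot be told apart. The study, from HC counts in other rats, held HC loss to be small at 3 weeks and likely significant at 7 weeks. Replicate numbers were given in accession order and pair no animals.

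In the embryonic ear, Sox2 marks the prosensory cells from which HCs and supporting cells arise. Atoh1, a basic helix-loop-helix activator, starts the HC program in some of them, and Notch effectors and Id proteins hold it back in their neighbours. Pou4f3, a POU-homeodomain factor, acts after Atoh1 and is needed for HC survival, as is Gfi1, a zinc-finger repressor that acts after Pou4f3. Lhx3 and Isl1 are LIM-homeodomain factors, and Barhl1 is a BarH-type homeodomain factor that supports HC survival. Rfx1, Rfx2 and Rfx3 are winged-helix factors that act on genes of cilia, and Rfx1 and Rfx3 are also needed to keep HCs of the cochlea.

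The upstream sequences of the genes are shown first, since the factors act on each other's genes through short motifs. RefSeq gene starts of the GRCr8 build were available for 9 members, all but Barhl1. The counts were made on Rnor6.0, so these positions are not those of the count table. Lhx3 and Isl1 are shown in full because they were the members called lower at 3 weeks. Each sequence is the 250 bases before the gene start, 5′ to 3′ on the gene's strand, at chr3:29432638-29432887 for Lhx3 and chr2:49823443-49823692 for Isl1, both on the minus strand. Capitals mark the E-box CANNTG, the motif of basic helix-loop-helix factors such as Atoh1, and the RFX half-site GTTGCC or its reverse complement.
Lhx3: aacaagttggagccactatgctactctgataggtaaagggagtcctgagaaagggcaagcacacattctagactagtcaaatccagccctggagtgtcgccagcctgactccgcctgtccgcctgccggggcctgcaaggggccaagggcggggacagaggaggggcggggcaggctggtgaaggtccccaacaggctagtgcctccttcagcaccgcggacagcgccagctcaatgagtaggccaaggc
Isl1: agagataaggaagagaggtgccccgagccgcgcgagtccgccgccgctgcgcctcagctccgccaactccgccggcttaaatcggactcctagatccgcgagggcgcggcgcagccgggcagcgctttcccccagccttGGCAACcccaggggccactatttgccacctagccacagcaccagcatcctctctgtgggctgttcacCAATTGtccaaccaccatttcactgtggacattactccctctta
The Lhx3 sequence held neither motif. The Isl1 sequence held 1 E-box, starting 44 bases before the gene start, and 1 half-site, 111 bases before it.

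The half-site was the motif that members shared most beyond its share in all promoters. It was found in 4 of 9 members, Isl1 and the 3 Rfx genes, and in 9.89% of the 33469 promoters of the same length. The 40 bases around it are shown for the Rfx genes, with the half-site in capitals, because all 3 held it, and no test was made.
Rfx1: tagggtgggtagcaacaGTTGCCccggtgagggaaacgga
Rfx2: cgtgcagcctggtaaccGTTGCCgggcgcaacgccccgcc
Rfx3: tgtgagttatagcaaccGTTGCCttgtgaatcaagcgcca
These windows lie on the minus strand at chr19:40996815-40996854, chr9:1758265-1758304 and chr1:235122518-235122557, with the half-site 28, 141 and 118 bases before the gene start. In Rfx1 the half-site overlaps an E-box. The E-box was in 4 of 9 members (Isl1, Pou4f3, Rfx1 and Sox2) and in 65.5% of all promoters, on either strand. The more specific E-boxes CAGCTG and CAGATG were in none of the 9 members and in 12% and 14% of all promoters. Of motifs bound by other members, AATC (Gfi1) was in 8 of 9 members and 70.5% of promoters, and ACAAAG and ACAATG (Sox2) and ATTAAT (Pou4f3) were in none of the 9 and in 16.3%, 11.1% and 4.71%. A match is only a match of letters. The members' sequences were also richer in G and C, at 55.6% to 80%, than the median of all promoters, 51.2%. The shares in all promoters are therefore not matched for base composition.

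Library totals were between 31100118 and 46018385 counts, and 3 counts corresponded to 0.0652 to 0.0965 CPM (counts scaled to a common library size). The 10 members lay well above this floor, the lowest value being 67 counts, of Barhl1. In 3 libraries, Control replicate 3 and IDPN-3wk replicates 1 and 2, fewer genes were detected at equal depth (15387 to 15498) than in the other 6 (16834 to 17312). The labels give all 9 libraries 1 batch. As a check of the tissue, 20 of 21 HC markers were in the table and passed the filter, and all of these had counts in every library except Pcdh15, a tip-link protein, which was at 0 in 1 IDPN-3wk library.

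Levels below are TMM-normalized CPM, and log2 fold changes come from edgeR's quasi-likelihood test of all 9 libraries, with p-values adjusted over the 15517 genes by the Benjamini-Hochberg method. A gene was called when its adjusted p was under 0.05 and its fold change above 1.5. Intervals are 95% intervals of the log2 fold change.

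Pou4f3, Lhx3 and Isl1 fell in at least one IDPN group, and no member was called higher. Lhx3 fell to 0.451 of its Control level at 3 weeks and to 0.34 at 7 weeks, Isl1 to 0.608 at 3 weeks, and Pou4f3 to 0.649 at 7 weeks. At 3 weeks, 2 of 10 members were called lower, against 1.21% of all genes tested. At 7 weeks, 2 of 10 were called lower, against 3.13% of all genes. In the comparison of the IDPN groups with each other, edgeR called none of the 10 in either direction, against 0.483% of all genes called in either direction and 0.135% called lower. An unadjusted p under 0.05 was reached by 2 members and by 13.8% of all genes, and DESeq2 called 1 member (Gfi1).

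**Figure D1:**
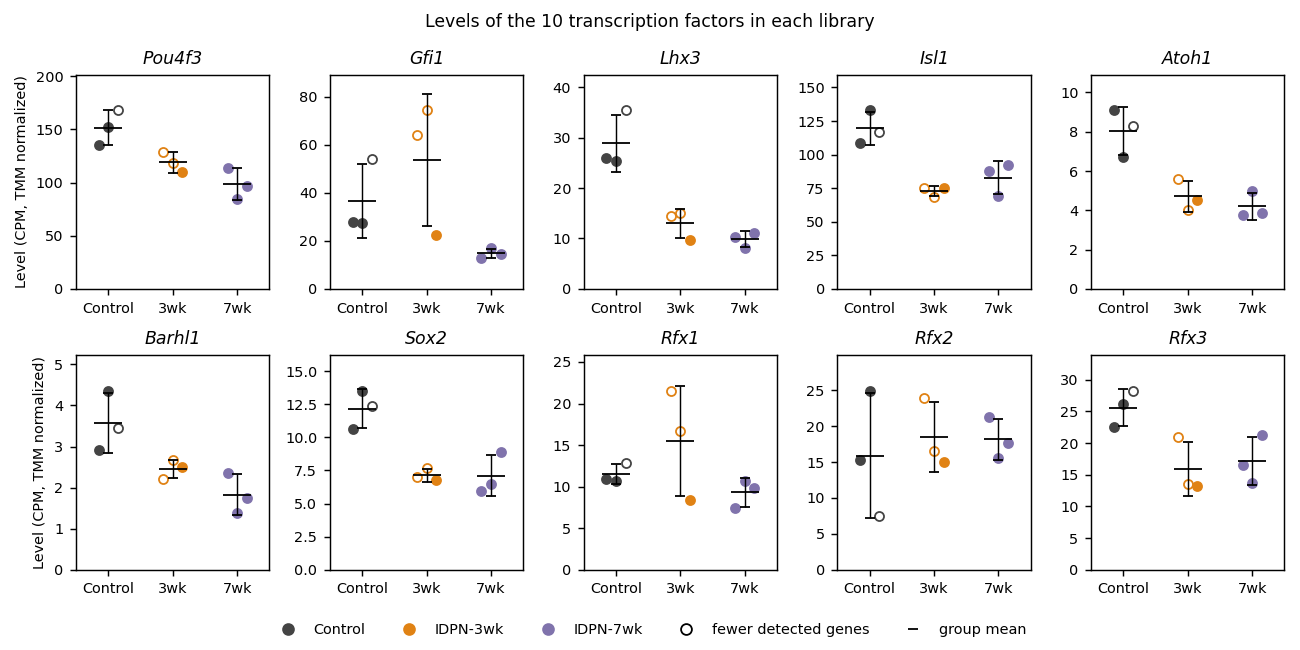
Level of each of the 10 genes (TMM-normalized CPM, axes from 0) in each library of the Control, IDPN-3wk and IDPN-7wk groups, with the mean and SD of 3 rats in black. Open points are the 3 libraries with fewer detected genes. All IDPN points lie below all Control points for Pou4f3, Lhx3, Isl1, Atoh1, Barhl1, Sox2 and Rfx3.

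Separation of the groups was more frequent than calls. At 3 weeks, all 3 IDPN libraries lay below all 3 Control libraries for 7 members (Pou4f3, Atoh1, Barhl1, Lhx3, Rfx3, Sox2 and Isl1), and for 10.9% of all genes. At 7 weeks this held for 9 members, all but Rfx2, and for 17.1% of all genes. The median log2 fold change of the members was -0.61 at 3 weeks and -0.70 at 7 weeks, where the medians of all genes tested were -5e-04 and 0.0097. An unadjusted p under 0.05 was reached by 6 members at 3 weeks, where 15.8% of all genes reached it, and by 7 at 7 weeks, where 19.3% did.

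Lhx3, a factor of HCs from early in their development, had the most negative log2 fold change of the 10 members at both times. Its level was 26.0, 25.3 and 35.4 CPM in the Control libraries, 14.4, 15.0 and 9.69 CPM at 3 weeks, and 10.3, 8.04 and 11.1 CPM at 7 weeks. Every exposed library was thus below every Control library, while the exposed groups overlapped each other. The highest Control value and the 2 highest 3-week values came from the libraries with fewer detected genes, and the difference between the sets was 0.53 on the log2 scale (edgeR adjusted p = 0.257). The 3-week difference from Control in log2(CPM + 2) was -1.16 within the set with fewer detected genes and -1.24 within the other. The log2 fold change was -1.15 ± 0.238 (SE) at 3 weeks (interval -1.68 to -0.62, edgeR adjusted p = 0.0415) and -1.56 ± 0.24 at 7 weeks (-2.09 to -1.02, adjusted p = 0.00441). The call at 7 weeks was made in every alternative run. The call at 3 weeks was lost whenever any of the 9 libraries was left out, with adjusted p-values of 0.0601 to 0.11 and log2 fold changes of -1.26 to -0.98, and in the fit of the 3-week and Control libraries alone (adjusted p = 0.102).

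Isl1, which is made by prosensory cells and by sensory neurons of the ear, was the other member that fell at 3 weeks. Its level was 109, 133 and 117 CPM in Control, 75.2, 68.2 and 75.1 CPM at 3 weeks, and 87.5, 69.0 and 92.2 CPM at 7 weeks. The exposed libraries were all below the Control libraries, and the order of means was Control, 7 weeks, 3 weeks, with the exposed groups overlapping. The log2 fold change was -0.72 ± 0.13 at 3 weeks (-1.01 to -0.43, edgeR adjusted p = 0.0231). At 7 weeks it was -0.53 ± 0.129 with an adjusted p of 0.039, under the 1.5-fold limit and so not called. The call at 3 weeks was lost without Control replicate 1 (adjusted p = 0.0631), 2 (0.102) or 3 (0.0587) and without IDPN-3wk replicate 1 (0.0521) or 2 (0.073), with log2 fold changes from -0.78 to -0.64, and in the 6 libraries with more detected genes (-0.69, 0.145). The summed level of 8 neuron markers was 112 to 129 CPM in Control, 70.3 to 81.5 at 3 weeks and 64.6 to 81.5 at 7 weeks, and 1 of 8 (Snap25) was called lower at each time. The markers did not all go one way, with 5 of 8 log2 fold changes negative at 3 weeks and 7 of 8 at 7 weeks. Nefh, a neurofilament, had log2 fold changes of 2.94 (edgeR adjusted p = 0.177) and 2.13 (0.256), and DESeq2 called it at 3 weeks. Of these markers, Stmn2 was at 0 in 3 libraries and Prph in 1. The part of nerve tissue in the level of Isl1 was not tested.

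Pou4f3, the survival factor downstream of Atoh1, was at 135, 152 and 168 CPM in Control. It was at 129, 118 and 110 CPM at 3 weeks and at 114, 84.4 and 96.9 CPM at 7 weeks. The 3-week libraries were all below Control, and the range of the 7-week libraries reached into that of the 3-week libraries. The log2 fold change was -0.35 ± 0.132 at 3 weeks (-0.65 to -0.06, edgeR adjusted p = 0.232, not called) and -0.63 ± 0.132 at 7 weeks (-0.92 to -0.33, adjusted p = 0.0209). The call at 7 weeks was lost without Control replicate 2 or 3 or IDPN-7wk replicate 2 or 3, with adjusted p-values of 0.0702, 0.0716, 0.0806 and 0.0863. It was also lost when the set of libraries was a covariate, since the log2 fold change of -0.55 (adjusted p = 0.0406) was then under the 1.5-fold limit, and likewise in the 6 libraries with more detected genes (-0.55). With library totals alone the log2 fold change was -0.49 (adjusted p = 0.051). The difference between the IDPN groups was -0.27 (-0.57 to 0.02, adjusted p = 0.401), so a further fall between 3 and 7 weeks was not shown.

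**Figure D2:**
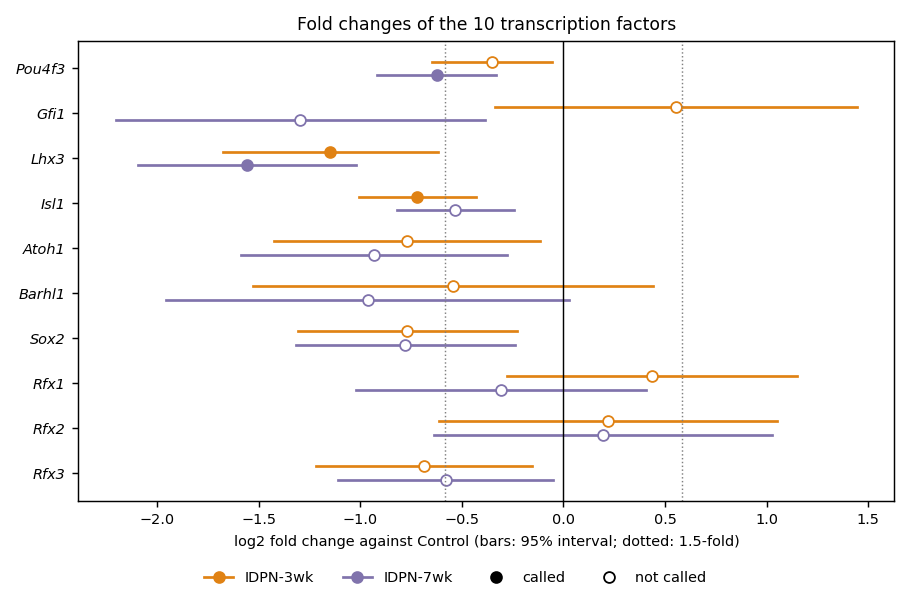
Log2 fold change against Control of each gene at 3 weeks and at 7 weeks, with 95% intervals from edgeR. Filled points are called, and dotted lines mark 1.5-fold. Lhx3 is called at both times, Isl1 at 3 weeks and Pou4f3 at 7 weeks.

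The level of Gfi1, the repressor that acts after Pou4f3, moved with the set of libraries that had fewer detected genes. It was at 28.0, 27.6 and 54.1 CPM in Control, at 64.2, 74.3 and 22.6 CPM at 3 weeks, and at 13.0, 16.9 and 14.7 CPM at 7 weeks. The 3 highest values belong to the 3 libraries with fewer detected genes, and within the other 6 libraries the 2 Control values were the highest. The 3 libraries at 7 weeks lay below all others, and all of them belong to the set with more detected genes.

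With a term for the set of libraries in the fit, Gfi1 was 1.29 higher on the log2 scale in the libraries with fewer detected genes (edgeR adjusted p = 0.0236), and it was the only member called in that contrast, where 0.999% of all genes were called in either direction. At 3 weeks its log2 fold change against Control was 0.55 ± 0.401 (-0.34 to 1.45, edgeR adjusted p = 0.55). Within the set with fewer detected genes, the difference in log2(CPM + 2) was 0.34 (2 libraries against 1), and within the other set it was -0.28 (1 against 2), so its direction at 3 weeks was not the same in both.

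At 7 weeks, the log2 fold change of Gfi1 was -1.30 ± 0.408 (-2.21 to -0.39) with an edgeR adjusted p of 0.103, and the gene was not called. It was called lower at 7 weeks with the set as a covariate (-0.80, adjusted p = 0.0372) and in the 6 libraries with more detected genes alone (-0.91, adjusted p = 0.0069). It was also called when the 7-week and Control libraries were fitted alone (adjusted p = 0.0229), by DESeq2 (adjusted p = 0.0154), and without IDPN-3wk replicate 3 (0.0235). Between the IDPN groups, its log2 fold change was -1.85 ± 0.414 (-2.77 to -0.93, edgeR adjusted p = 0.0978), and -0.83 with the set as a covariate (adjusted p = 0.336). In that comparison DESeq2 called it (adjusted p = 0.000414), as did edgeR without IDPN-3wk replicate 3 (-2.22, adjusted p = 0.0143).

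**Figure D3:**
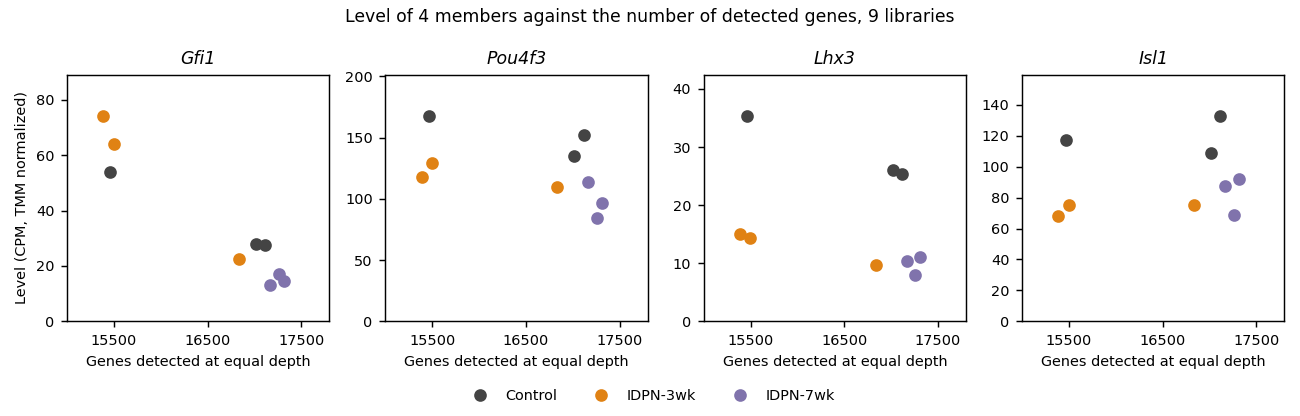
Level (TMM-normalized CPM) of Gfi1, Pou4f3, Lhx3 and Isl1 against the number of genes detected at equal depth, 1 point per library, coloured by group. Gfi1 is at 54.1 CPM or more in the 3 libraries at the left, one of them Control, and at 28.0 CPM or less in the other 6. Pou4f3, Lhx3 and Isl1 separate Control from exposed libraries on both sides.

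Gfi1 is also known from blood cells. Macrophage markers summed to 63.1 to 107 CPM in Control, 45.3 to 132 CPM at 3 weeks and 190 to 245 CPM at 7 weeks. None was at 0 in any library. All 7 had a positive log2 fold change at 7 weeks, with a median of 1.56. EdgeR called 1 (C1qb) higher at 7 weeks, and DESeq2 called 4 (Aif1, Ptprc, C1qb and C1qc). An unadjusted p under 0.05 was reached by 5 at 7 weeks, and by 19.3% of all genes. No list of markers was made for other blood cells. The part of blood cells in the level of Gfi1 was not tested.

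The RNA of Atoh1 is known to be scarce in adult epithelia. It was at 9.09, 6.70 and 8.30 CPM in Control, 5.59, 4.01 and 4.52 CPM at 3 weeks, and 3.75, 5 and 3.87 CPM at 7 weeks. No exposed library reached the lowest Control library, and the exposed groups overlapped. The log2 fold changes, -0.77 at 3 weeks (-1.43 to -0.12, edgeR adjusted p = 0.239) and -0.93 at 7 weeks (-1.59 to -0.28, adjusted p = 0.104), were not called. DESeq2 called Atoh1 at 7 weeks (adjusted p = 0.00873). The study, which used DESeq2 on these libraries, names Atoh1 and Pou4f3 among genes lower at 7 weeks but not at 3 weeks.

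Barhl1 had the fewest counts of the members, 67 to 139 per library. Its level was 2.91, 4.35 and 3.46 CPM in Control, 2.21, 2.66 and 2.49 CPM at 3 weeks, and 2.36, 1.38 and 1.75 CPM at 7 weeks. The means went down in the order Control, 3 weeks, 7 weeks, but the intervals of both log2 fold changes, -0.54 (-1.53 to 0.44, edgeR adjusted p = 0.608) and -0.97 (-1.96 to 0.03, adjusted p = 0.275), reached past 0. The exposed libraries were all below the Control libraries at both times, and neither fold change was called.

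Sox2, kept in the adult organ by supporting cells and type II HCs, was at 10.6, 13.5 and 12.4 CPM in Control, 6.98, 7.68 and 6.76 CPM at 3 weeks, and 5.95, 6.48 and 8.86 CPM at 7 weeks. Both exposed groups were below Control, with almost the same mean, 7.14 ± 0.477 and 7.10 ± 1.55 CPM (SD, n = 3). The log2 fold changes were -0.77 ± 0.243 (edgeR adjusted p = 0.157) and -0.78 ± 0.242 (adjusted p = 0.0986), neither called by edgeR. DESeq2 called Sox2 at 3 weeks (adjusted p = 0.0229) and at 7 weeks (0.0116).

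Supporting cell markers were lower with it. All 10 had a negative log2 fold change at both times, 1 was called at 3 weeks (Otogl) and 5 at 7 weeks, and none was at 0 in any library. Their summed level was 17100 to 17700 CPM in Control, 10800 to 13500 CPM at 3 weeks and 7600 to 10200 CPM at 7 weeks. The part of supporting cells in the level of Sox2 was not tested.

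Of the 3 Rfx genes, only Rfx3 had all exposed libraries below Control at both times. Rfx3 was at 22.5, 26.1 and 28.2 CPM in Control, 20.9, 13.6 and 13.2 CPM at 3 weeks, and 16.5, 13.7 and 21.2 CPM at 7 weeks. Its exposed groups overlapped each other, and the log2 fold changes of -0.69 (-1.22 to -0.15, edgeR adjusted p = 0.196) and -0.58 (-1.11 to -0.05, adjusted p = 0.215) were not called.

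Rfx1 was at 10.9, 10.7 and 12.9 CPM in Control, 21.5, 16.7 and 8.39 CPM at 3 weeks, and 7.39, 10.7 and 9.80 CPM at 7 weeks. The values of 21.5 and 16.7 CPM came from the 2 IDPN-3wk libraries with fewer detected genes, and the third 3-week library was below all Control libraries. Its log2 fold change at 3 weeks was 0.44 (-0.28 to 1.15, edgeR adjusted p = 0.556), and -0.36 in the 6 libraries with more detected genes. At 7 weeks it was -0.31 (-1.02 to 0.41, adjusted p = 0.691).

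Rfx2 was at 15.3, 24.9 and 7.54 CPM in Control, 24.0, 16.5 and 15.0 CPM at 3 weeks, and 21.3, 15.6 and 17.6 CPM at 7 weeks. The Control libraries spanned more than both exposed groups, with the lowest value in the Control library with fewer detected genes. Its log2 fold changes were 0.22 (-0.61 to 1.05, edgeR adjusted p = 0.834) and 0.19 (-0.64 to 1.03, adjusted p = 0.852), and both were negative without that library (-0.12 and -0.14).

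HC markers were lower in the same groups. The list held stereociliary, synaptic and ion channel genes, and 6 of its 20 tested members were called lower at 3 weeks and 11 at 7 weeks, with medians of -0.74 and -1.01 on the log2 scale. Otof, a synaptic vesicle protein, was at 703 ± 75.6 CPM in Control, 353 ± 52.5 CPM at 3 weeks and 351 ± 23.8 CPM at 7 weeks (SD, n = 3; log2 fold changes -0.992 and -1.003, edgeR adjusted p = 0.00459 and 0.00137). Ptprq, a phosphatase of the stereocilia that the study also lists from these libraries, was at 958 ± 187, 310 ± 36.3 and 341 ± 49.1 CPM (-1.63 and -1.49, edgeR adjusted p = 0.0014 and 0.000611). Of the other markers, the study also names Ocm as lower at both times, and Cdh23 and Ush1c at 7 weeks. The list was thus not independent of findings from these libraries. Myo15a, a stereociliary motor, was at 101 ± 14, 27.9 ± 5.15 and 32.1 ± 5.44 CPM (-1.85 and -1.65), and Loxhd1, a stereociliary membrane protein, at 92.2 ± 14.7, 28.7 ± 0.963 and 37.2 ± 7.63 CPM (-1.68 and -1.31), with edgeR adjusted p-values of 0.000803 and 0.00184 at 7 weeks.

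Each member was therefore also set against these markers within its own library, as its log2 CPM minus the mean log2 CPM of the 20 markers. The marker mean itself was 6.41 ± 0.123 in Control, 5.42 ± 0.0942 at 3 weeks and 5.38 ± 0.107 at 7 weeks (SD, n = 3), with Pcdh15 at 0 in 1 library at 3 weeks. An exact two-sided permutation test of 3 libraries against 3 cannot give a p below 0.1, which becomes 0.167 after adjustment over the 20 ratios, so none could pass.

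Relative to the marker mean, Pou4f3 was at 0.77, 0.71 and 1.02 in Control, 1.49, 1.49 and 1.43 at 3 weeks, and 1.41, 1.15 and 1.15 at 7 weeks, on the log2 scale. Every exposed library was above every Control library, by 0.64 in the mean at 3 weeks and 0.40 at 7 weeks (exact permutation p = 0.1 for each), so Pou4f3 was lower by less than the mean of the markers. Against the sum of the markers, the differences were 0.32 and 0.19. The markers were not alike. Their log2 fold changes ranged from -3.38 (Pcdh15) to 0.305 (Chrna9) at 3 weeks and from -2.75 to -0.044 (the same genes) at 7 weeks. Pou4f3 (-0.35 and -0.63) lay within both ranges. At 7 weeks some markers fell less than it did, among them Myo7a (-0.326, not called).

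Against the marker mean, Lhx3 was the only member with a lower ratio at both times, and against the sum of the markers Lhx3 (-0.49 and -0.73) and Atoh1 (-0.10 and -0.10) both were. Its ratio was -1.60, -1.88 and -1.23 in Control, -1.68, -1.48 and -2.07 at 3 weeks, and -2.05, -2.24 and -1.98 at 7 weeks. It overlapped Control at 3 weeks (difference -0.17, exact permutation p = 0.5) and was below every Control library at 7 weeks (-0.52, p = 0.1). Isl1 was above Control in every exposed library, by 0.27 at 3 weeks and 0.49 at 7 weeks (exact permutation p = 0.1 for each). At 3 weeks this depended on the summary, since against the sum of the markers the difference was -0.048.

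The other ratios were higher than in Control by 0.22 to 1.44 at 3 weeks, and at 7 weeks their differences were between -0.20 (Gfi1) and 1.38 (Rfx2). Against the sum of the markers, those of Atoh1 (-0.10), Rfx3 (-0.045) and Sox2 (-0.093) were below 0 at 3 weeks, and those of Gfi1 (-0.40), Atoh1 (-0.10) and Barhl1 (-0.14) at 7 weeks. The largest SDs within a group were those of Gfi1, Rfx2 and Rfx1 (0.883, 0.794 and 0.623).

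**Figure D4:**
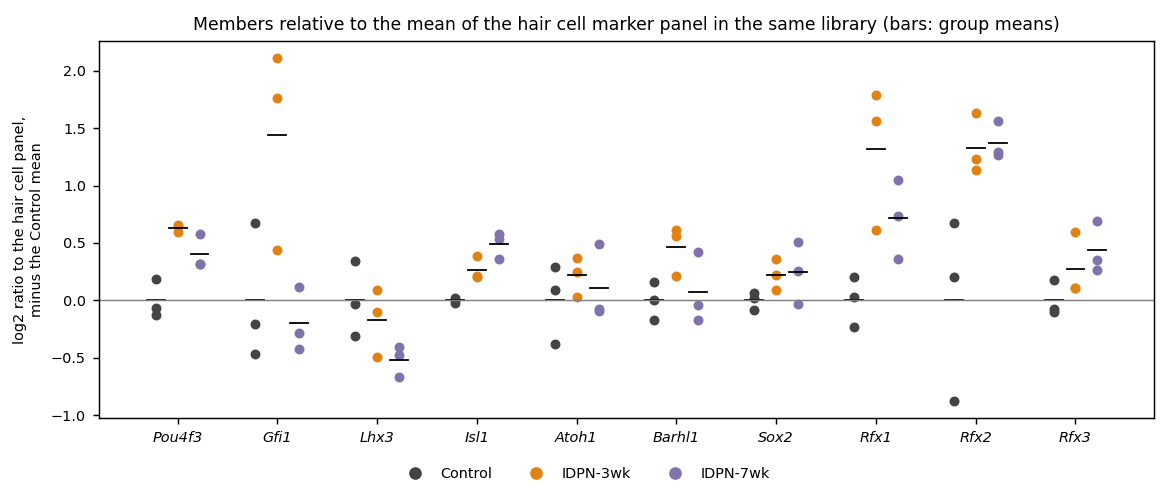
Log2 CPM of each gene minus the mean log2 CPM of the 20 HC markers in the same library, shown relative to the Control mean of that gene, with group means as black bars. Pou4f3 and Isl1 are above Control in all exposed libraries, and Lhx3 is below Control in all libraries at 7 weeks.

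Other genes of the circle were described by lists. Of 27 other transcription factors of the inner ear that were tested, among them Eya, Gata and Pax genes, edgeR called none at 3 or 7 weeks. Of all 15517 genes, 256 and 796 were called, so a list of this size would hold few calls at that share. At each time 4 of the 27 had an unadjusted p under 0.05, as did 15.8% and 19.3% of all genes. DESeq2 called 1 (Pax2) at 3 weeks and 0 at 7 weeks, and the median log2 fold changes were 0.03 and 0.02. The smallest p-values at 7 weeks belonged to Six4, a homeodomain factor (96.9 ± 9.36 CPM in Control and 67.4 ± 7.15 at 7 weeks, SD, n = 3, log2 fold change -0.52, adjusted p = 0.0945), and to Otx1, a homeodomain factor (1.02 ± 0.435 and 3.07 ± 1.07 CPM, 1.59, adjusted p = 0.188). The summed level of this list was 1040 to 1250 CPM in Control, 1100 to 1190 at 3 weeks and 1140 to 1270 at 7 weeks, so the groups overlapped.

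EdgeR called none of 9 tested repressors that oppose Atoh1 at either time, with medians of 0.20 and -0.26. An unadjusted p under 0.05 was reached by 1 at 3 weeks and 3 at 7 weeks, and by 15.8% and 19.3% of all genes. DESeq2 called 0 and 1 (Hes1). Hes1, a Notch effector, was at 33.8, 34.0 and 38.6 CPM in Control, 37.5, 34.2 and 25.8 CPM at 3 weeks and 6.29, 21.0 and 20.4 CPM at 7 weeks. Its groups overlapped at 3 weeks and separated at 7 weeks (log2 fold change -1.16 ± 0.372, edgeR adjusted p = 0.108, not called). Heyl, also of the Notch pathway, was at 265 ± 50.2 CPM in Control and 176 ± 50.3 CPM at 7 weeks (SD, n = 3, log2 fold change -0.59, edgeR adjusted p = 0.139). Id4, an inhibitor of basic helix-loop-helix factors, moved with the set of libraries as Gfi1 did, with a log2 difference of 2.20 (edgeR adjusted p = 0.00406) between the set with fewer detected genes and the rest.

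Of the paralogs of the members, 8 of 21 in the table passed the filter. Neither edgeR nor DESeq2 called any of them, 0 had an unadjusted p under 0.05 at either time, and the medians were 0.04 and -0.10. Among all genes 15.8% and 19.3% had such a p, so few would be found among 8. The smallest p-values at 7 weeks were those of Rfx8 and Lhx1, both at under 2 CPM in Control and at 7 weeks, with edgeR adjusted p-values of 0.737 and 0.802. Those that did not pass the filter had too few counts to be tested at this depth.

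Among 9 genes taken as targets of Atoh1 or Pou4f3, Bdnf, the neurotrophin of vestibular HCs, was the only one called. Its level was 118, 125 and 113 CPM in Control, 49.0, 58.8 and 57.1 CPM at 3 weeks, and 41.3, 33.5 and 43.6 CPM at 7 weeks. Bdnf fell by 1.11 on the log2 scale at 3 weeks (SE 0.129, edgeR adjusted p = 0.00297) and by 1.59 at 7 weeks (SE 0.13, adjusted p = 0.00015). No library of one IDPN group overlapped the other or Control. The difference between the IDPN groups was -0.478 (edgeR adjusted p = 0.155, not called), so a further fall was not shown. The medians of the 9 targets were 0.05 and -0.09.

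Of 8 ciliary genes of the RFX factors, both genes called were dynein heavy chains. Dnah9 was at 53.0 ± 6.09 CPM in Control, 14 ± 2.57 at 3 weeks and 21.5 ± 3.50 at 7 weeks (SD, n = 3, log2 fold changes -1.92 and -1.30, edgeR adjusted p = 0.00158 and 0.00332). Dnah5 was called at 7 weeks, at 43.8 ± 12.9 CPM in Control and 18.6 ± 2.08 CPM (log2 fold change -1.23, edgeR adjusted p = 0.0347). The list as a whole had medians of -0.15 and -0.08, and the genes of intraflagellar transport and the Bardet-Biedl proteins in it were not called.

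**Figure D5:**
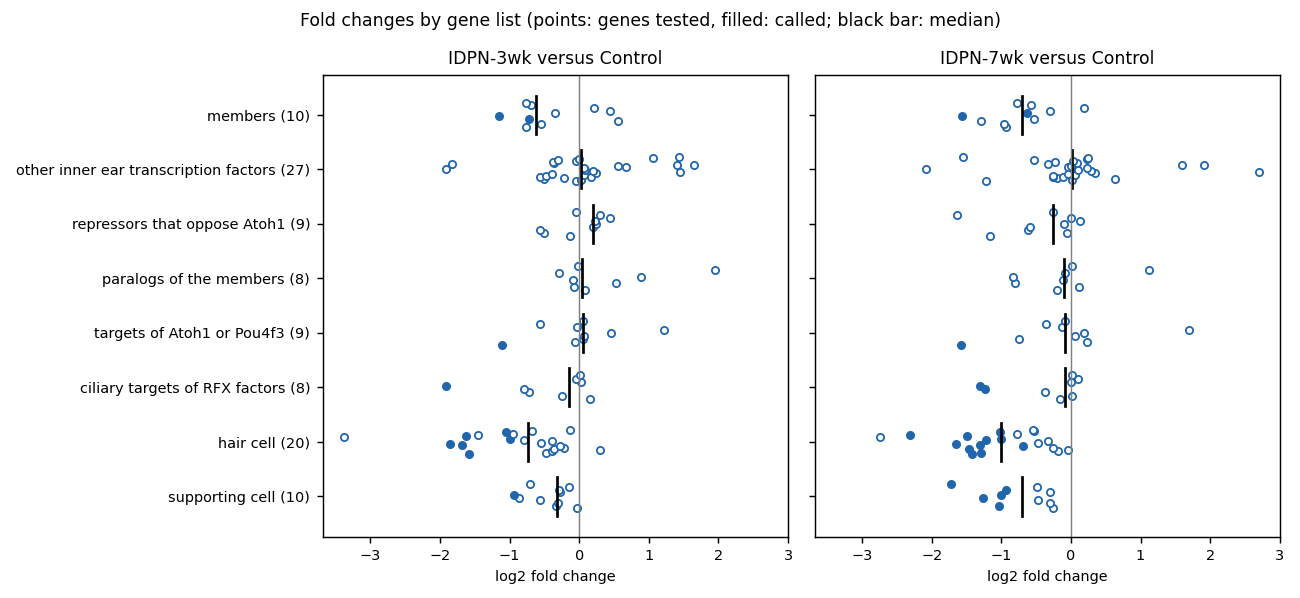
Log2 fold change against Control at 3 weeks (left) and 7 weeks (right) of each tested gene of 8 lists, with the number tested in parentheses, filled points for called genes and a black bar at the median. The medians of the 10 members, the HC markers and the supporting cell markers are below 0 at both times, and those of the other inner ear transcription factors are near 0.

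Across the 9 libraries, the genes with patterns most like those of the called members were found by Pearson's r of log2(CPM + 2) among 9816 genes with a mean of at least 10 CPM. These r values describe 9 libraries that share the 3 groups, and no test was made. For Lhx3 the nearest were Tbc1d5 (0.975), Osbpl6 (0.973) and Hif1a (0.971). For Isl1 they were Dnah9 (0.968), Loxhd1 (0.966) and Dis3l2 (0.961). For Pou4f3 they were Pdk1 (0.955), Dnal4 (0.953) and Hif1a (0.951). A high r does not mean a change of like size. At 3 and 7 weeks the log2 fold changes of Pdk1 (-0.118 and -0.292) and Dnal4 (-0.121 and -0.258) were not called. Hif1a (-0.465 and -0.624) was called at 7 weeks (edgeR adjusted p = 0.00926).

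Markers of other cell types of the tissue are given by list. All 7 Schwann cell markers had a negative log2 fold change at 7 weeks, with a median of -0.99. EdgeR called 2 of them (Mbp and Pmp22) lower at 7 weeks, and DESeq2 called 6. An unadjusted p under 0.05 was reached by 6 at 7 weeks, and by 19.3% of all genes. At 3 weeks neither edgeR nor DESeq2 called any and 0 had an unadjusted p under 0.05. Their sum was 9560 to 12000 CPM in Control, 7700 to 10200 at 3 weeks and 3260 to 6840 at 7 weeks. Lum was the only one called of 5 fibroblast markers, lower at 7 weeks. Of 6 tested markers of dark cells or melanocytes, Bsnd was called higher at 3 weeks and Kcnq1 lower at 7 weeks.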

How the data were processed

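Vestibular epithelia of 9 rats were sequenced with SMARTseq2, which amplifies small RNA inputs by PCR without molecular identifiers, so floors cover counting error only. The authors mapped reads to Rnor6.0 with STAR (2.5.3a in the submitters' processing notes) and made the deposited estimated counts per gene (expected counts, whole numbers, not normalized) with RSEM (1.3.0 in those notes). The strand used in counting is not given in the sources used here.

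Counts were tested in R 4.3.3 with edgeR 4.0.16 (filterByExpr, TMM, robust quasi-likelihood fit with a mean per group, 6 residual degrees of freedom). DESeq2 1.42.0, the tool of the study, was an alternative. The fit was tested on simulated data. Replicates of a group did not hold the same counts (lowest chi-square per gene 18.8). The members and lists were chosen with earlier results of these data known. The named genes were the 10 members, for each other pathway list and the HC list up to 4 called genes with the smallest p at 7 weeks (or the 2 smallest where none was called), the 3 genes most like each called member, and lone called markers. Id4 was named after its values were seen. List symbols not found in the table were Insm1, Dlx6, Sox1, Sox3, Ift172, Foxj1, Tomt and Dct, and Ocm was matched as Ocm2. Alternatives were RLE size factors, library totals, other filters and fold limits, fits of 2 groups, a covariate for the 3 libraries in which fewer genes were detected, and each library left out in turn. The fit of the 6 libraries with more detected genes was added after seeing the data.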

Additional observations from a re-analysis of the deposited data

How the results depend on the processing

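The number of members called was 2 at 3 weeks. It was 3 with DESeq2 (Lhx3, Sox2 and Isl1), 1 in the fit of those 2 groups alone, 1 with a fold limit of 2, 1 in the 6 libraries with more detected genes, and 0 to 1 with a library left out. At 7 weeks it was 2, against 5 with DESeq2 (Pou4f3, Gfi1, Atoh1, Lhx3 and Sox2), 1 with library totals alone, 1 with a fold limit of 2, and 1 to 3 with a library left out. Between the IDPN groups it was 0, against 1 with DESeq2 (Gfi1) and 0 to 1 with a library left out. All genes called, in either direction, numbered 256, 796 and 75 with edgeR and 826, 1392 and 585 with DESeq2. EdgeR tested 15517 genes, and DESeq2 tested 19641 in each comparison with Control. In the fit of the 6 libraries with more detected genes, signs turned at 3 weeks for Gfi1 (-0.30), Rfx1 (-0.36) and Rfx2 (-0.42), at 7 weeks for Rfx2 (-0.15), and between the IDPN groups for Lhx3 (0.013), Rfx1 (0.14), Rfx2 (0.28) and Sox2 (0.062). Between the IDPN groups, library totals alone turned Rfx2 (0.10) and Sox2 (0.11), and the covariate turned Sox2 (0.04). None of these values was called, and the cause was not tested. With a library left out, the log2 fold change of Rfx2 was between -0.119 and 0.697 at 3 weeks, between -0.142 and 0.673 at 7 weeks and between -0.154 and 0.209 between the IDPN groups, where Rfx3 was between -0.077 and 0.354 and Sox2 between -0.2 and 0.103. Against the summed markers, ratios turned for Sox2 (-0.093), Isl1 (-0.048), Atoh1 (-0.10) and Rfx3 (-0.045) at 3 weeks and for Atoh1 (-0.10) and Barhl1 (-0.14) at 7 weeks. Counted over all settings, 543 log2 fold changes kept their direction and their side of the threshold, 25 lost a call, 11 gained one and 21 turned. Many of these values could not move. The other fold limits used the main fit, and leaving out a library of the third group left the fold change as it was. The count is therefore no measure of stability. No paired analysis was made, because the labels state no pairs of animals. The library titles start with a code whose meaning is not given. All Control libraries share the same code and no IDPN library has it, so it cannot be told apart from exposure. Another code is shared by an IDPN-3wk and an IDPN-7wk library. With 3 libraries a group, intervals were wide for Barhl1, Rfx1 and Rfx2.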
